A study of Mus musculus with 9 samples.

Results

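The genes described here had ratios on 1 side of 0 in mouse CD8+ T cells whichever of 3 cytokines the cells had been grown with. They were chosen as the genes whose log ratio of cytokine-cultured over untreated cells had the same sign on all 9 arrays of the series. Of 17499 genes measured, 414 met this rule, 261 above 0 and 153 below 0. Above 0 is likely, though not settled, to mean higher in the cytokine culture.

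Cultures of 4 days held IL-2, IL-15 or IL-21, each at 10 ng/ml, while control cultures had none, and all were restimulated for 4 h with cytokine left out. Each cytokine had 3 biological replicates, and each array read the total RNA of 1 cytokine culture against that of untreated CD8+ cells in the other dye. The labels give no strain, age, stimulus or number of animals per culture. The untreated cells, restimulated likewise, were taken as shared by the 3 arrays of a replicate number, so 9 equal signs are not 9 independent observations.

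IL-2, IL-15 and IL-21 are cytokines whose receptors share the common gamma chain, through which they activate the kinases JAK1 and JAK3. IL-2 and IL-15 also share a beta chain and act mainly through the transcription factor STAT5, while IL-21 acts mainly through STAT3. In CD8+ T cells these signals are known to drive survival, division and the acquisition of killing functions, and their outcomes differ between the cytokines.

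The deposited values were ratios, taken here as log2 although the base is not stated, and ran from -8.01 to 8.78. Array medians lay between -0.05 and 0.13, and the IL-2 array of replicate 3 spread most, with 13.6% of probes beyond 1 in either direction. No signal levels were used, so dim probes were not set apart, and the cell type was read only from ratios. Cd8a stood at 0.03 ± 0.35 and Cd3e at -0.01 ± 0.43 (SD of the 3 replicate means, n = 3). Of 11 measured T cell and CD8 identity markers 0 had the same sign on all arrays. The share over all genes was 2.37%, so 0 of 11 is no result about them.

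The direction of the ratios rests on the following. By the sample labels Cy5 always carried the cytokine culture. By the series text the dyes were exchanged for replicates 2 and 3. Differences between 2 cytokines within a replicate number, which a shared dye effect cannot create, ran the same way across replicates where IL-21 was one of the pair. Over all probes, pairs of replicates had correlations of 0.20, 0.15 and 0.11 for IL-21 minus IL-2, and of 0.12, 0.14 and 0.17 for IL-21 minus IL-15, against 0.04, -0.04 and -0.02 for IL-15 minus IL-2. The mean of the 3 cytokines behaved otherwise: replicate 1 correlated with replicate 2 at -0.06 and with replicate 3 at -0.38, whereas replicates 2 and 3 correlated at 0.30. Dye orientation, replicate number and the shared untreated cells cannot be told apart. With the sign of replicates 2 and 3 turned, 370 genes were above and 629 below 0 on all arrays. None of these can be among the 414, since the 2 rules exclude each other. The mean then changed sign for 60 of the 64 genes of the 414 chosen for naming, which turning 2 of 3 replicates largely sets.

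**Figure D1:**
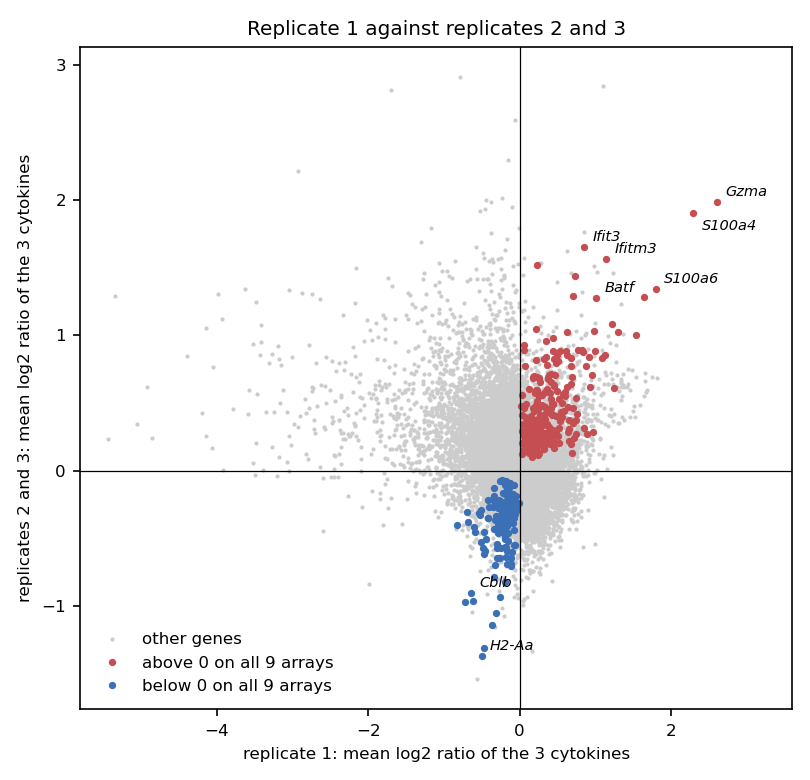
Each point is 1 of 17499 genes, with the mean log2 ratio of the 3 cytokines over untreated cells in replicate 1 on the x axis and the same mean over replicates 2 and 3 on the y axis. Red points are the 261 genes above 0 and blue points the 153 genes below 0 on all 9 arrays; the genes farthest to the left, low in replicate 1, are in neither group.

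The first comparison asked whether the average response to the 3 cytokines differed from 0. The 3 arrays of a replicate number were averaged, and the 3 resulting values were tested with limma over all genes. At an adjusted p under 0.05 the test called 0 genes (0% of 17499), and the smallest adjusted p was 0.400, for S100a4. At an unadjusted limma p under 0.05 there were 563 genes above 0 (3.22%) and 191 below 0 (1.09%). An exact sign-flip test on 3 values cannot go below p = 0.25. With a dye term in the fit, which sets replicate 1 against replicates 2 and 3, limma called 210 genes above 0 (1.2%) and 214 below 0 (1.22%), among them 42 of the 261 and 8 of the 153. These members were chosen by sign on the same arrays, which helps to set how many pass. In that fit replicate 1 is alone on its side, so a gene's own spread comes only from replicates 2 and 3. Without replicate 1 limma called 589 and 65 genes at the adjusted threshold, on replicates that share 1 dye orientation.

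The 261 genes above 0 on every array were 1.49% of all genes, and the 153 below 0 were 0.874%. Of these, 138 of the 261 and 64 of the 153 had an unadjusted limma p under 0.05, a share that the choice by sign on the same arrays helps to set. Many stood close to 0: 125 of the 261 and 88 of the 153 had at least 1 array within 0.05 of it. All 9 arrays were beyond 0.2 for 30 genes above and 6 below 0, and beyond 0.5 for 6 above, namely S100a4, S100a6, Gzma, Gng2, Rbl1 and Batf, and 1 below, Cblb. Among genes just inside the rule was Irf7, at 0.003 on its weakest array, and among those just outside it Mlkl and Il3, each above 0 on 8 arrays and at -0.03 on the IL-21 array of replicate 3.

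**Figure D2:**
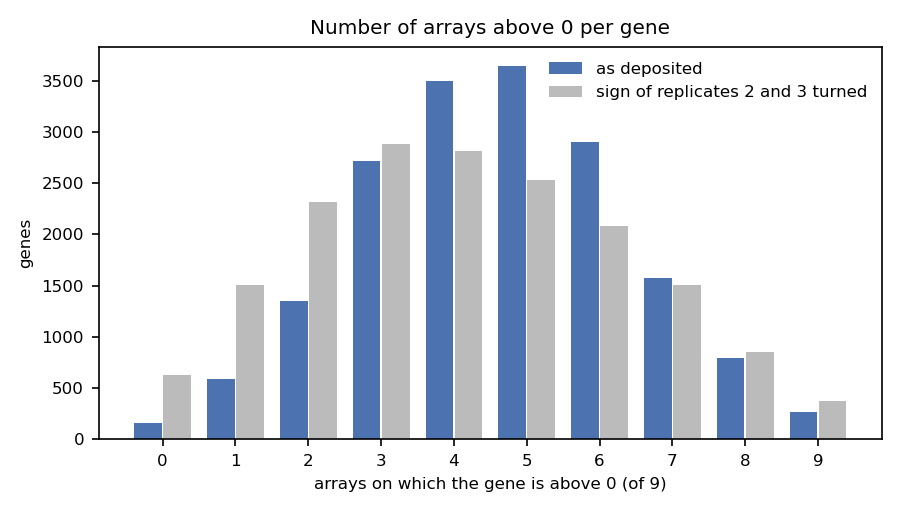
Bars give the number of genes (y axis) by the number of arrays, of 9, on which the gene was above 0 (x axis), for the values as deposited (blue) and with the sign of replicates 2 and 3 turned (grey). As deposited, 153 genes were above 0 on 0 arrays and 261 on all 9, against 629 and 370 with the sign turned.

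S100a4 and S100a6, small calcium-binding proteins typical of effector and memory T cells, lay farthest above 0 on their weakest array. S100a4 stood at 2.64, 2.57 and 2.55 with IL-2 in replicates 1, 2 and 3, at 2.32, 1.33 and 1.85 with IL-15, and at 1.93, 1.80 and 1.34 with IL-21. S100a6 stood at 2.15, 1.96 and 1.99 with IL-2, at 1.86, 1.08 and 1.19 with IL-15, and at 1.38, 1.15 and 0.68 with IL-21. For both genes the IL-2 arrays were the highest of each replicate and differed little among themselves. Over replicates the means were 2.04 ± 0.23 for S100a4 and 1.49 ± 0.27 for S100a6 (SD, n = 3; limma adjusted p = 0.400 and 0.564). With the dye term the means of both genes stayed above 0. Replicate 1 is alone on its side in that fit, and both genes were picked on the same arrays, so its p-values are not given here. Anxa1, a calcium- and lipid-binding annexin, averaged 0.62 ± 0.29 and was at 0.06 on its weakest array, with IL-21. Of the 14 S100, annexin and galectin genes listed, these 3 were above and 0 below 0 on all arrays. Over all genes the shares were 1.49% and 0.874%. S100a1, off that list, was above 0 on all arrays too. Of the 14, 7 were above 0 at an unadjusted limma p under 0.05, against 3.22% of all genes. The list's median was 0.37, against 0.02 over all genes, and by cytokine 0.82 with IL-2, 0.57 with IL-15 and -0.15 with IL-21. In bulk RNA a change in the share of a kind of cell and a change in RNA per cell cannot be told apart.

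The promoter of S100a4 is shown because it was the gene farthest from 0 on its weakest array. It and the promoters below are the 250 bases before the RefSeq start on GRCm38.p6, printed 5′ to 3′, and capitals mark the motifs searched.
S100a4, chr3:90603520-90603769, plus strand: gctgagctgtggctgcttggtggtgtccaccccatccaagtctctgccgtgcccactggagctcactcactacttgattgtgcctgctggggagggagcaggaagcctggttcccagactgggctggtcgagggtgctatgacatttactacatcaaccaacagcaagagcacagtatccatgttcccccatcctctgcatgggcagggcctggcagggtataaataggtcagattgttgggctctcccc
The window held none of 3 motifs searched on both strands, the STAT palindrome TTCNNNGAA, the AP-1 site TGANTCA and the core of the interferon element, GAAANNGAAA.

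Among genes of the killing machinery, the proteases Gzma and Gzmc, the pore-forming Prf1 and the death ligand Tnfsf10 (TRAIL) were above 0 on all arrays. Gzma had the highest mean of the 414 genes. It stood at 2.79, 1.16 and 3.62 with IL-2 in replicates 1 to 3, at 2.45, 0.63 and 1.71 with IL-15, and at 2.59, 1.70 and 3.10 with IL-21. Replicate 2 was the lowest for each cytokine and IL-15 the lowest within each replicate. The mean was 2.19 ± 0.90 (SD, n = 3), with a limma adjusted p of 0.567. Gzmc ranged from 0.19 to 2.14 over the arrays around a mean of 1.40 ± 0.43, Prf1 from 0.16 to 2.12 around 0.69 and Tnfsf10 from 0.15 to 1.22 around 0.74. These were 4 of 20 listed cytotoxic genes, against 1.49% of all genes above 0, with 0 below 0 on all arrays. The list's median was 0.22. Gzmb, the best-known granzyme, was outside: it was above 0 on 7 arrays, averaging 2.31 with IL-2, 1.90 with IL-15 and -0.25 with IL-21.

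The promoter of Gzma is shown as that of the highest mean. It holds the interferon element core on the reverse strand, starting 97 bases before the start.
Gzma, chr13:113100982-113101231, minus strand: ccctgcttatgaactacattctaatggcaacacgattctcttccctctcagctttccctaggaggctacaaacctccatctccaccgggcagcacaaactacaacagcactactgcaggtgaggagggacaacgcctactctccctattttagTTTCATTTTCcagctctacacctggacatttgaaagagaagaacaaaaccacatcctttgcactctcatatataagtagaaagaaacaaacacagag

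Of 14 effector transcription factors listed, Batf and Id2 were above and Zeb2 below 0 on all arrays, against 1.49% and 0.874% of all genes. The list's median was -0.06. Batf, an AP-1 family factor needed for effector CD8+ differentiation, stood at 1.07, 0.93 and 2.17 with IL-2 in replicates 1, 2 and 3, at 1.01, 0.55 and 1.13 with IL-15, and at 0.95, 1.56 and 1.31 with IL-21. Its mean of 1.19 ± 0.30 (SD, n = 3; limma adjusted p = 0.564) showed no fixed order of the cytokines, since IL-21 was the highest in replicate 2 and the lowest in replicate 1. Id2, which blocks E-protein factors and favours effector cells, averaged 0.95 and ranged from 0.33 to 1.52. Zeb2, a repressor found in terminal effector cells, averaged -0.26, came within 0.01 of 0, and its 4 probes had means from -0.45 to 0.11, so it is uncertain.

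Other genes far from 0 on every array came from signalling and metabolism. Gng2, a G protein gamma subunit, kept between 0.62 and 1.10, and Rbl1 (p107), a pocket protein that restrains E2F targets, between 0.59 and 1.43. The means were 0.87 ± 0.05 for Gng2, the least variable over replicates of these genes, and 0.89 ± 0.23 for Rbl1 (SD, n = 3; limma adjusted p = 0.564 and 0.567). Fkbp2, a prolyl isomerase of the endoplasmic reticulum, averaged 0.79. Aqp9, a channel for water and glycerol, averaged 0.85, and P2ry14, the receptor for UDP-glucose, 1.20 with a range from 0.36 to 2.09. All 3 were above 0 with every cytokine, and the IL-21 array was the lowest of the 3 for Fkbp2 and P2ry14 in every replicate.

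**Figure D3:**
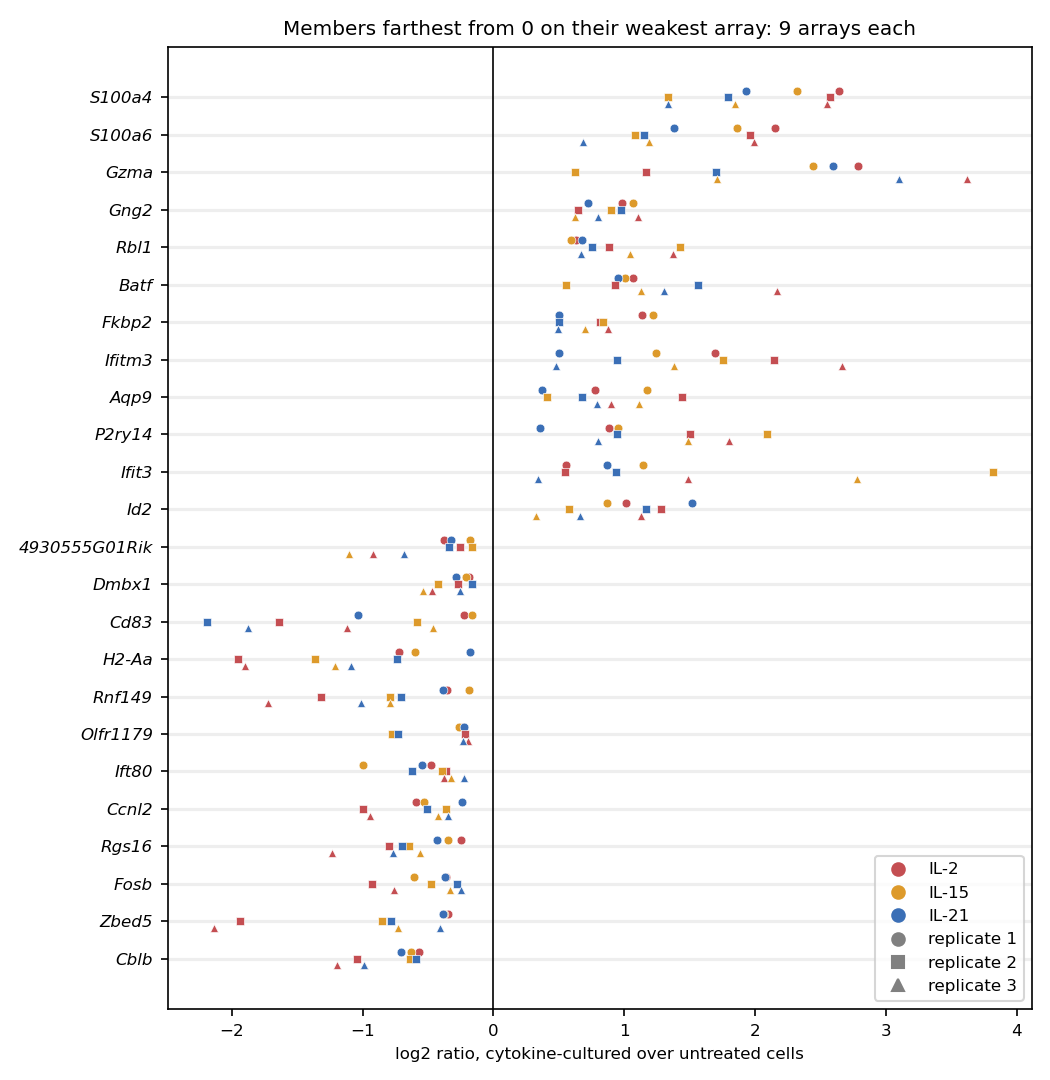
Log2 ratio of cytokine-cultured over untreated cells (x axis) on each of 9 arrays for the 12 genes above and the 12 genes below 0 whose array nearest to 0 was farthest from it (y axis). Colour marks the cytokine and symbol the replicate; S100a4 lies at 1.33 or above on every array, and Cblb at -0.57 or below.

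Of 23 interferon response genes measured, 7 were above 0 on all arrays and 0 below, against 1.49% and 0.874% of all genes. They were the membrane antiviral proteins Ifitm1, Ifitm2, Ifitm3 and Bst2, the antiviral Ifit3, the ubiquitin-like modifier Isg15 and the interferon regulator Irf7. The list was chosen with earlier results of these data known. Its genes above 0 at an unadjusted limma p under 0.05 numbered 17, against 3.22% of all genes. The list's median was 0.66 against 0.02 over all genes. By cytokine the median was 0.97 with IL-15, 0.52 with IL-2 and 0.24 with IL-21, and by replicate 0.27, 0.98 and 0.78. With the sign of replicates 2 and 3 turned, 0 of the 23 had equal signs, which for the 7 follows from the rule itself. Over all genes 5.71% had equal signs then, and 0 in so short a list is no result.

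Isg15 was the 1 gene of the 414 that also differed among the cytokines in a limma F test, which called 0.257% of all genes. It stood at 1.64, 2.86 and 2.33 with IL-15 in replicates 1, 2 and 3, at 0.36, 0.94 and 0.91 with IL-2, and at 0.12, 0.53 and 0.18 with IL-21. The 3 IL-15 values lay above every other array, and within every replicate IL-2 lay above IL-21. IL-15 exceeded IL-2 by 1.54 (95% interval 1.08 to 2.00), the interval of IL-21 minus IL-15 ran from -2.46 to -1.55, and that of IL-21 minus IL-2 from -0.92 to -0.0061. The F test adjusted p was 0.0391 in limma. That call was lost without the replicate block (limma adjusted p = 0.162), after quantile normalization (0.133), with any replicate left out (0.286 to 0.415), without the IL-2 array of replicate 3 (0.102) and with the sign of replicates 2 and 3 turned (0.998). Ifit3 showed the same order of means, 2.58 ± 1.35 with IL-15, 0.86 ± 0.54 with IL-2 and 0.72 ± 0.33 with IL-21 (SD, n = 3), with 1 array at 3.82, and the F test adjusted p was 0.380 in limma.

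The Ifitm genes had another order. Ifitm3 stood at 1.69, 2.15 and 2.67 with IL-2 in replicates 1, 2 and 3, at 1.24, 1.75 and 1.38 with IL-15, and at 0.50, 0.95 and 0.48 with IL-21. The 3 groups of arrays followed IL-2, IL-15, IL-21 within every replicate, and the mean was 1.42 ± 0.25 (SD, n = 3; limma adjusted p = 0.564). The F test for a difference among cytokines gave a limma adjusted p of 0.122. Ifitm1 averaged 0.71 and Ifitm2 0.74, each highest with IL-2 in replicates 2 and 3. Bst2 averaged 0.59 and Irf7 0.41, both highest with IL-15 in every replicate, and on the IL-21 array of replicate 3 they stood at 0.02 and 0.003.

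**Figure D4:**
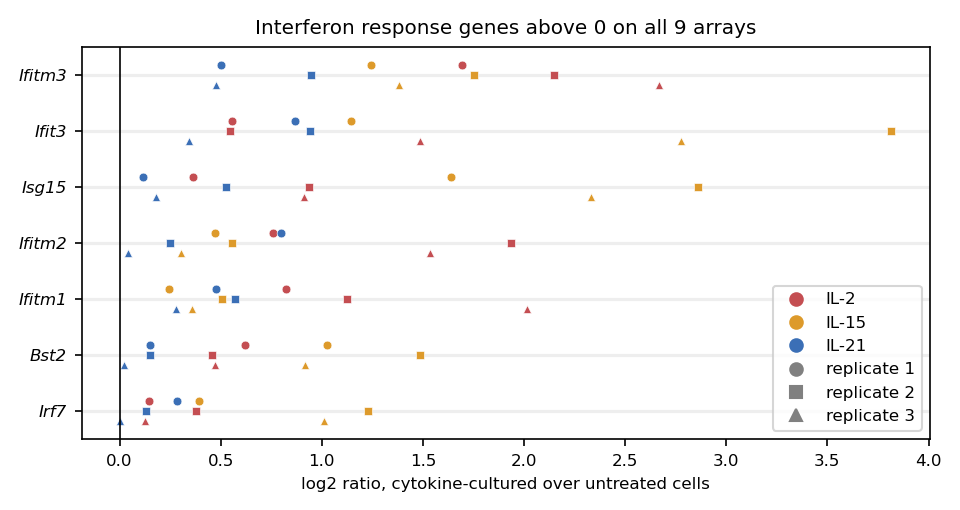
Log2 ratio of cytokine-cultured over untreated cells (x axis) on each of 9 arrays for the 7 interferon response genes above 0 on all of them (y axis). Isg15, Ifit3, Bst2 and Irf7 have their highest point with IL-15, and the 3 Ifitm genes with IL-2.

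The promoters of Ifit3 and Isg15 are shown because these interferon genes had the highest IL-15 means of the 7. Both hold the interferon element core, Ifit3 at 2 places, 156 and 122 bases before the start, with an AP-1 site at 56 bases, and Isg15 at 3 overlapping places from 78 bases before the start.
Ifit3, chr19:34583279-34583528, plus strand: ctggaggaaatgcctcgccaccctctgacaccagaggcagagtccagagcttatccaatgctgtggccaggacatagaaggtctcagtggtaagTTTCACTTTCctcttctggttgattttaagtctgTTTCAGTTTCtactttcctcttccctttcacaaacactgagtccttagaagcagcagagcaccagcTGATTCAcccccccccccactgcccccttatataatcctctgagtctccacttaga
Isg15, chr4:156200819-156201068, minus strand: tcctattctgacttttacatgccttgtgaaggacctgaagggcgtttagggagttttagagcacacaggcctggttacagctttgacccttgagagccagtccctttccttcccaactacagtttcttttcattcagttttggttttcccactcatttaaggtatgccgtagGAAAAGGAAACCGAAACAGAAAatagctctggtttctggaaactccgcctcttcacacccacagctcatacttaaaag
Over all promoters matched, the interferon core was in 13 of 214 promoters of genes above 0 (6.08%), in 2 of 125 of genes below 0 (1.6%) and in 407 of 13883 over all genes (2.93%). The STAT palindrome was in 6.54% of the first, 5.6% of the second and 6.59% of all, and the AP-1 site in 6.54%, 6.4% and 6.04%. A match is a run of letters and not a shown binding site.

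Among cytokine receptors, both chains of the IL-18 receptor, which senses an inflammatory cytokine that promotes interferon gamma output, were above 0 on all arrays. Il18r1 ran from 0.25 to 1.61 around a mean of 0.92 ± 0.15, and Il18rap from 0.20 to 1.47 around 0.78 ± 0.17 (SD, n = 3; limma adjusted p = 0.564 and 0.587). They are neighbours on the chromosome. Stat5b, a transducer of IL-2 and IL-15 signals, was below 0 throughout, averaging -0.28 with its nearest array at -0.10. Of 22 receptor and SOCS feedback genes these 3 had equal signs, against 2.37% of all genes, and the list's median was 0.17. Among 19 cytokine and chemokine genes, 2 were above 0 on all arrays, against 1.49% of all genes. Ccl9, a macrophage-attracting chemokine, averaged 0.78 and was lowest with IL-2 within each replicate, and Tnf averaged 0.52 and was highest with IL-15 within each.

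Regulators of the cell cycle were among the genes above 0. Of 12 CDK inhibitor and D-type cyclin genes, Cdkn1a, Cdkn2d and Ccnd3 were above 0 on all arrays and 0 below. The share of all genes above 0 on all arrays was 1.49%, and the list's median was 0.22. Cdkn1a (p21), an inhibitor of cyclin-dependent kinases, stood at 1.48, 1.36 and 2.24 with IL-2 in replicates 1, 2 and 3, at 1.37, 1.07 and 1.14 with IL-15, and at 0.11, 0.16 and 0.20 with IL-21. Its IL-21 arrays were all above 0 but far under the others, and the F test adjusted p was 0.104 in limma. Cdkn2d, an inhibitor of CDK4 and CDK6, was highest with IL-21 in every replicate, at 0.91, 1.45 and 1.46 against 0.26, 0.86 and 1.39 with IL-2 and 0.18, 0.29 and 0.43 with IL-15. Of 23 mitosis genes 18 were above 0 at an unadjusted limma p under 0.05 for the mean, against 3.22% of all genes. The count of equal signs was 0 of 23, against 2.37% of all genes, and the list's median was 1.18 with IL-2, 0.86 with IL-15 and -0.44 with IL-21. Of 23 DNA replication genes 18 also had such a p, and 3 had equal signs, the primase subunit Prim1, the GINS subunit Gins1 and the transcription factor E2f1. Prim1 averaged 1.30 with IL-2, 1.08 with IL-15 and 0.08 with IL-21. Equal signs were met by 0 of 23 histone genes measured from the list. The histone genes H2ac19 and H3c4, which it lacks, were above 0 on all arrays. Beside 2.37% of all genes, a count of 0 in the mitosis or histone list is no result about it.

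Below 0, Cblb was the gene farthest from 0 on its weakest array. It encodes a ubiquitin ligase that restrains signalling from the T cell receptor. It stood at -0.57, -1.04 and -1.20 with IL-2 in replicates 1, 2 and 3, at -0.63, -0.64 and -0.99 with IL-15, and at -0.71, -0.59 and -0.99 with IL-21. The cytokines did not separate, and all 3 of its probes had the same sign on every array. The mean was -0.82 ± 0.22 (SD, n = 3; limma adjusted p = 0.587). Among 16 brakes on T cell receptor signalling, the phosphatase Ptpn22 and Rgs16, which speeds G protein shutdown, were also below 0 on all arrays, averaging -0.53 and -0.64, and the adaptor Pag1, which recruits the kinase Csk, was above 0 with a mean of 0.54. Neither probe of Ptpn22 had equal signs on its own. On all arrays 3 of the 16 were below and 1 above 0, against 0.874% and 1.49% of all genes. The list's median was -0.12.

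The promoter of Cblb held none of the 3 motifs.
Cblb, chr16:52031299-52031548, plus strand: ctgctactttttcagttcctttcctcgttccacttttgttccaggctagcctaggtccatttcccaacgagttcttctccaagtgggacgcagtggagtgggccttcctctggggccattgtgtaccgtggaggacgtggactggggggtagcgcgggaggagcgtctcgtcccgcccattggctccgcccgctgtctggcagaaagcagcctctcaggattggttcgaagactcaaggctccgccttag

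MHC class II genes, which present antigen and are borne mainly by B cells and myeloid cells, gave 3 of 10 below 0 and 0 above. The share of all genes below 0 on all arrays was 0.874%. H2-Aa stood at -0.72, -1.95 and -1.90 with IL-2 in replicates 1, 2 and 3, at -0.60, -1.36 and -1.21 with IL-15, and at -0.18, -0.74 and -1.09 with IL-21. IL-2 was the lowest and IL-21 the nearest to 0 within every replicate, and the mean of -1.08 ± 0.51 (SD, n = 3; limma adjusted p = 0.697) was the lowest of the 414. The invariant chain Cd74 averaged -0.57 and H2-Eb1 -0.26, the latter within 0.02 of 0. Of 9 B cell markers 0 had equal signs, and the list's median was -0.03. A mean below 0 was found for 7, but Cd79a, Ms4a1, Blnk and Vpreb3 only ran from -0.03 to -0.0002. Ebf1 and Pax5 averaged above 0, at 0.11 and 0.15. Lowest were Ighm at -0.34 ± 0.17, below 0 on 6 arrays, and Cd79b at -0.23 ± 0.09, below 0 on 8 (SD, n = 3). Both were picked out after their values were seen. The medians of these markers by replicate were -0.16, -0.13 and 0.17, and those of 12 myeloid and dendritic cell markers, 0 with equal signs, -0.19, 0.10 and 0.14. For NK cell markers (7 measured), CD4 T cell markers (4) and erythroid markers (4) the count was also 0, and 0 in marker lists this short is no result. The part of such cells in the MHC class II values was not tested.

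Immediate early genes, induced within minutes to hours of stimulation, had a mean above 0 for 4 of 16 measured. Of the 16, Nr4a1, Nr4a2 and Fosb were below and Ier3 above 0 on all arrays, against 0.874% and 1.49% of all genes. The list's median was -0.26. Nr4a1, an orphan nuclear receptor used as a readout of T cell receptor signal, stood at -0.78, -2.06 and -1.66 with IL-2 in replicates 1, 2 and 3, at -0.85, -0.73 and -0.06 with IL-15, and at -0.52, -0.997 and -0.35 with IL-21. Its range was wide within every cytokine, and the mean was -0.89 ± 0.32 (SD, n = 3; limma adjusted p = 0.653). Fosb, a subunit of AP-1, averaged -0.49, and Ier3, a stress and survival gene, 0.71. Nr4a2 rests on 2 probes of which neither kept its sign on all arrays. It was at -5e-05 on the IL-2 array of replicate 3, so its place in the part is uncertain. Fos, the related AP-1 subunit, was above 0 on 2 arrays and averaged -0.64.

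Of 13 costimulatory receptors and activation markers, Icos was above 0 and Cd83 and Cd44 below 0 on all arrays. Shares over all genes were 1.49% above and 0.874% below 0. Cd83, a surface protein of activated lymphocytes, stood at -0.23, -1.64 and -1.12 with IL-2 in replicates 1, 2 and 3, at -0.16, -0.58 and -0.47 with IL-15, and at -1.03, -2.19 and -1.87 with IL-21. IL-21 was the lowest and IL-15 the nearest to 0 within each replicate, and replicate 1 the nearest for each cytokine. Icos, a costimulatory receptor related to CD28, averaged 0.81 and was highest with IL-2 in every replicate, with 1 of its 2 probes of equal sign. Cd44, an adhesion receptor long used as a marker of activation, averaged -0.31, with 2 of its 9 probes of equal sign. The chemokine receptor Cxcr3 averaged -0.61 and was the 1 of 17 homing and chemokine receptors to keep its sign, against 2.37% of all genes.

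Lists of housekeeping, metabolic and receptor genes are read beside the 2.37% of all genes that had equal signs in either direction. Of 25 cytosolic ribosomal protein genes measured from the list, Rpl13 and Rpl32 were below 0, averaging -0.25 and -0.18. Off that list, Rpl34, Rpl37a, Rpl39, Rps10, Rps16, Rps26 and Rps3a1 were also below 0 on all arrays. The list thus does not show all such genes. The lactate exporter Slc16a3 was the 1 of 15 glycolysis genes and the sterol enzyme Cyp51 the 1 of 19 lipid synthesis genes, both above 0. The receptor Klra3 was the 1 of 11 NK lectin receptors, also above 0. Klra10 and Klra22, not among those 11, were above 0 on all arrays too. Counts were 0 of 23 proteasome genes, 0 of 12 MHC class I presentation genes, 0 of 16 naive and memory T cell genes and 0 of 10 inhibitory receptors, and 0 in lists this short is no result about them. Ndufb8 was the 1 of 21 respiratory chain genes measured from their list to keep its sign. Ndufa1, Ndufa3, Ndufa13 and Atp5e, which that list lacks, were above 0 on all arrays. Ndufb8, the adaptor Fadd and Cflar, an inhibitor of death receptor signalling, rest on probes that did not keep 1 sign each. For Tbp 6 of 79 probes kept their sign, and the probe means ran from -0.40 to 0.65.

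**Figure D5:**
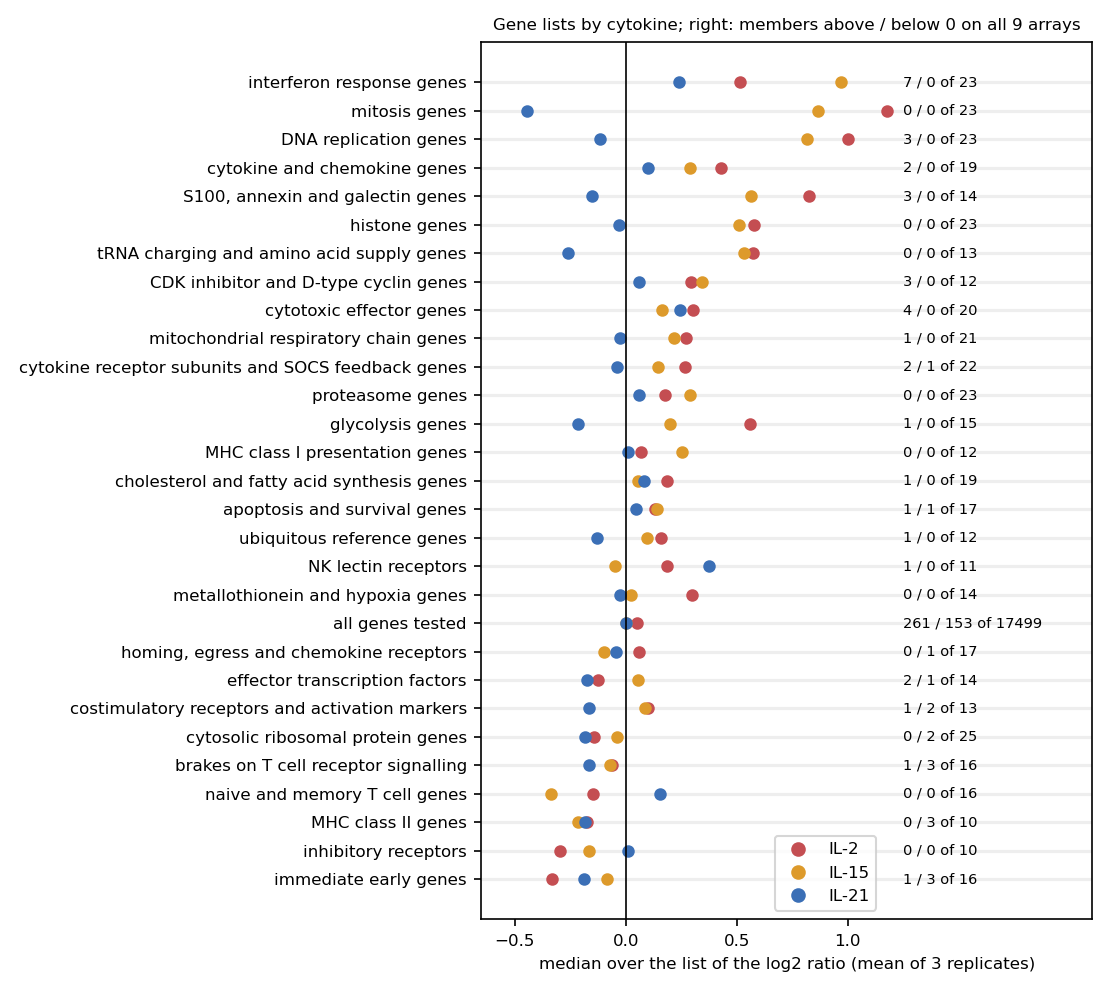
Median log2 ratio over the measured genes of each list (x axis) with IL-2, IL-15 and IL-21, each gene being the mean of 3 replicates, and on the right the number of genes above and below 0 on all 9 arrays of those measured. The interferon list has all 3 medians above 0 (0.52, 0.97 and 0.24) and 7 of 23 genes above 0, while the mitosis list has an IL-21 median of -0.44 and 0 of 23.

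The other lower genes farthest from 0 had various roles. Zbed5, a zinc finger gene, averaged -0.88 and was lower with IL-2 in replicates 2 and 3, at -1.93 and -2.14, than on any other array. Rnf149, a ubiquitin ligase, averaged -0.81, the cyclin Ccnl2, which acts in splicing, -0.55, and Ift80, a ciliary transport protein, -0.48. Dmbx1 ran from -0.54 to -0.16, the olfactory receptor gene Olfr1179 from -0.78 to -0.19 and 4930555G01Rik from -1.10 to -0.16, and neither probe of Dmbx1 kept its sign on all arrays by itself.

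The sizes of the ratios were spread unevenly over the cytokines. Among the 261 genes above 0, IL-2 gave the value farthest from 0 for 127, IL-15 for 89 and IL-21 for 45, and IL-21 was nearest to 0 for 144. The medians of the gene means were 0.38 with IL-2, 0.36 with IL-15 and 0.26 with IL-21. Among the 153 genes below 0 the medians were -0.31, -0.29 and -0.29, and IL-2 was farthest for 66, IL-21 for 53 and IL-15 for 34. With the sign of replicates 2 and 3 turned, other genes met the rule. Of 370 above 0, IL-2 was again farthest most often, for 184, but IL-21 came next with 123 and IL-15 last with 63. Of 629 below 0 the order was unchanged, with IL-2 farthest for 253, IL-21 for 241 and IL-15 for 135. In the limma F test with the replicate number as a block, 45 genes of 17499 differed among the cytokines (0.257%), 1 of them Isg15 and the others outside the 414. At an unadjusted F test p under 0.05, 66 of the 414 and 1923 of all genes differed, and a p above that does not show that the cytokines acted alike. With the sign of replicates 2 and 3 turned the F test called 0 genes.

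Many genes missed the rule by 1 array. Of 796 genes above 0 on 8 arrays, the remaining array was an IL-21 array for 477, an IL-15 array for 169 and an IL-2 array for 150. Csf2 (GM-CSF), a myeloid growth factor made by activated T cells, averaged 2.26 and was at -0.45 on the IL-21 array of replicate 1. Havcr2 (TIM-3), an inhibitory receptor, averaged 0.81 and Aldoa, a glycolytic enzyme, 0.80, both below 0 with IL-21 in replicate 3. Cxcr6 and the NK receptor Klrc1 averaged 0.90 and 0.74 and missed with IL-15 in replicate 2, Klrc1 at -0.67. Of 589 genes below 0 on 8 arrays, the remaining one was an IL-21 array for 245. With the sign turned, it was an IL-21 array for 345 of 848 genes above 0 on 8 arrays and for 425 of 1511 below 0 on 8, where an IL-15 array was the more frequent at 620.

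On the chromosomes, 13 of 411 genes placed were next to another one of the same direction, in 7 pairs. They were the IL-18 receptor chains, Ifitm2 with Ifitm1 and Ifitm1 with Ifitm3, H2-Aa with H2-Eb1, Ndufa3 with Tfpt, Mpped1 with Efcab6, and Igsf3 with Mab21l3. Ifitm1, Ifitm2 and Ifitm3 are close paralogs, so their probes may share signal.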

How the data were processed

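Total RNA of 9 cultures was amplified, labelled by amino allyl coupling and hybridised on 2-colour arrays against untreated cells, per the labels' protocols. The deposited table held 1 ratio per probe and array, normalized by the authors in a way not given in the sources used here, and was taken as log2 from its spread of values around 0. Of 36547 probes, 26926 had 1 gene symbol in the platform annotation, 203 had several, 9418 had none, and 40 named viral control probes were removed. A gene's value was the mean of its probes, which need not each keep 1 sign. On all 9 arrays 1 of 2 probes did so for Fosb, Ier3, Cd74, Tnfsf10 and Cyp51. For Ifitm1 and Ccnd3 it was 1 of 3, and for Ifit3 2 of 3.

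The 3 arrays of a replicate number were averaged, and the 3 values per gene were tested against 0 with limma 3.58.1 in R 4.3.3 (lmFit and eBayes, two-sided, Benjamini-Hochberg over 17499 genes, threshold 0.05). Differences among cytokines were tested with limma's F test with the replicate number as a block. The fits were tested on simulated data. Arrays of 1 replicate number deviated together from their cytokine's mean, with correlations of 0.15 to 0.63 over all pairs. Paired cultures, dye orientation and shared untreated cells cannot be told apart in these values. The labels call the replicates biological without saying from how many animals.

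The members and the gene lists were chosen with earlier results of these data known. The lists do not hold every gene of a family, so a list's count leaves out members not on it. Named genes were the 12 higher and 12 lower members farthest from 0 on their weakest array, every member on a list, up to 3 genes of each list with the smallest p, and a fixed set. Alternatives covered normalization, probe choice, dye term, direction, block and samples left out. Ratios carry no depth, so precision rests on how many arrays there were. Promoters are RefSeq's, matched by gene ID or symbol.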

Additional observations from a re-analysis of the deposited data

Results flagged for a closer look

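Isg15 was flagged because its ratio differed among the 3 cytokines (limma F test, adjusted p = 0.03913), in 3 of 3 replicates with IL-15 the highest. 6 other genes named by rule differed as well, all outside the 414. H2ac12, a histone gene, averaged 2.33 with IL-2, 2.09 with IL-15 and -0.62 with IL-21 (limma adjusted p = 0.0168), and all 3 IL-21 arrays were below 0. The metallothionein genes Mt1 (limma adjusted p = 0.02323) and Mt2 (0.03913) averaged 1.92 and 1.93 with IL-2, and -0.78 and -1.06 with IL-21. Satb1, a chromatin organiser, was the reverse, at 1.42 with IL-21, -0.07 with IL-2 and -0.29 with IL-15 (limma adjusted p = 0.03721). Csf2 averaged 3.66, 2.63 and 0.49 with IL-2, IL-15 and IL-21 (limma adjusted p = 0.03913), and the histone variant gene H2az1 1.47, 1.27 and 0.03 (limma adjusted p = 0.04276). Of the 7 genes, 0 stayed called with any replicate left out or with the sign of replicates 2 and 3 turned. H2ac12 alone stayed called with no replicate block and without the IL-2 array of replicate 3, and Mt1 alone after quantile normalization. Groups of 3 arrays were too small for a search for single outlying arrays.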

How the results depend on the processing

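For the mean of the 3 cytokines, the count of genes at an adjusted p under 0.05 stayed at 0 in both directions under median centring, quantile normalization, the median of the cytokines, other choices of probes, any cytokine left out, another variance model and the turned sign. With all 9 arrays and the replicate number as a random replicate block it was also 0 and 0, with a smallest limma adjusted p of 0.054. A dye term gave 210 higher and 214 lower genes. Leaving out a replicate, or the IL-2 array of replicate 3 (chosen after seeing the data), gave 0 to 589 higher and 0 to 65 lower. Genes of equal sign numbered 629 lower with the sign turned, 30 higher and 6 lower beyond 0.2, and 6 and 1 beyond 0.5. With fewer arrays to meet the rule, samples left out gave 300 to 1417 higher and 204 to 1041 lower. The F test called 4 genes with no replicate block, 12 after quantile normalization, 0 with the turned sign, and 0 to 9 with samples left out. The cause of these moves was not tested, other than that fewer arrays make the rule of equal signs easier to meet.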

Other observations

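Probes without a gene symbol in the table used were kept apart. Of these 9418, 62 were above 0 on all arrays (0.658%) and 77 below 0 (0.818%). The opposite pattern, replicate 1 on one side of 0 and replicates 2 and 3 on the other, was met by 999 genes (5.71%), more than the 414 with equal signs. Olfactory receptor genes, a list chosen after seeing the data, made up 3.80% of those 999 and 5.14% of all genes. Of the 899 measured, 1 was above and 7 below 0 on all arrays, and their medians by replicate were -0.09, 0.02 and 0.09.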
